A study of Danio rerio with 2 samples.

Results

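Notch ligands are the membrane proteins with which one cell activates Notch receptors on its neighbour, and the zebrafish genes form a Delta group (*dla*, *dlb*, *dlc*, *dld* and *dll4*) and a Jagged group (*jag1a*, *jag1b*, *jag2a* and *jag2b*). Binding of a ligand, followed by its uptake into the sending cell, exposes the receptor to proteases that free its intracellular domain. That domain enters the nucleus and activates targets such as the *hey* and *her* genes together with Rbpj. In the developing heart the pathway is known for its roles in endocardium, valve formation and trabeculation of the ventricle. The members were found by name: every open region whose list of assigned genes held 1 of the 9 ligand genes was taken, which gave 24 regions of 41473 in all. The rule itself used no signal, and all 9 genes were present, each with at least 1 region.

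The data are an ATAC-seq experiment, in which a transposase cuts accessible DNA, on zebrafish hearts dissected at 96 hpf and frozen whole. One library came from *hos* (heart of stone) mutants, labelled mut, and 1 from siblings, labelled wt. Both came from the *hos* line with the Tg(*myl7*:GFP) transgene, a GFP reporter driven by the promoter of a cardiomyocyte myosin light chain gene, and the protocol names 60 hearts. The series title ties the study to the SWI/SNF subunit Smarce1, and the labels do not describe the *hos* allele further. Since each genotype had a single library, no p-value could be given, and every difference below is one between these 2 libraries without a replicate check.

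For each region and library the files give an average signal, the mean pileup over the region, and say whether an interval was called. The log2 ratio is log2((mutant signal + 1)/(sibling signal + 1)), and folds are of the signals themselves. The 95% intervals are exact for tags estimated from the signals and cover counting error only. Scaled signals or duplicate reads could make their coverage differ from 95%. The regions held an estimated 4091429 tags for sibling and 4748194 for mutant hearts, and how the libraries were scaled to each other is not given in the sources used here. Over all regions the median log2 ratio was 0.15, and over regions within 1000 bp of a gene start, called promoter regions here, it was 0.25. Ratios of the ligand genes are read against these values. Hearts are named as the tissue and cardiomyocytes as the cell type. Of the cardiomyocyte genes, 7 of 8 showed an open promoter, with a summed signal of 257 for sibling and 428 for mutant hearts, against 209 and 289 over 5 of 10 endothelial genes, 106 and 81.3 over 3 of 5 epicardial genes and 377 and 472 over 6 of 8 neural genes. Of the cardiomyocyte sums, 143 and 181 came from *myl7*, whose promoter also drives the transgene, and the part of the transgene was not tested. The endothelial genes *kdrl*, *tek*, *pecam1*, *flt1* and *erg* and the epicardial genes *tcf21* and *aldh1a2* had no open promoter. The same held for the cardiomyocyte gene *myh6* and the neural genes *nkx2.2a* and *neurog1*. Open promoters of several cell types were thus present, and fewer cells of a type and a less open region in each cell cannot be told apart.

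The ligand loci carried a promoter region in 7 of the 9 genes, and all 7 had more signal in the mutant library at the region nearest the start. Those of *dla*, *dlc* and *dll4* were called in the mutant library only, as were 10.3% of all promoter regions. They entered the set through that call, which uses the same reads as the ratio, so their direction is no separate result. The 7 log2 ratios ran from 0.26 at *dlc* to 1.38 at *dll4* with a median of 0.41, against a median of 0.25 over the 14591 genes with such a region, of which 77.3% lay above 0. Counting all regions within 1000 bp, the ligand genes had 10, of which 9 were above 0, and their median was 0.48. The remaining 14 regions, further from the start of their ligand gene, split evenly with 7 above and 7 below 0 and a median of -0.11. The median was 0.06 over all regions more than 1000 bp from the start of every gene assigned to them. The *dld* region at -4925 bp, among the 14, lies by the start of *fam120b* and is not in that wider group. The distance of 1000 bp falls between the *dlc* region at -756 bp, with a ratio of -1.02, and the *jag1a* region at 1445 bp, with -0.93.

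A 2-fold difference was rare among them. Of the 24 regions, 1 stood 2-fold or more above the sibling signal, at the *dll4* start, and 1 was 2-fold or more below it, upstream of *dlc*. This is 4.17% in each direction, next to 3.32% of all regions higher and 4.83% lower, so the ligand regions passed this limit about as often as regions did in general. The counting interval of the fold lay above 1 in 9 ligand regions (37.5%) and below 1 in 3 (12.5%), next to 24.5% and 10.3% of all regions. The plot of signal in every ligand region shows these values.

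**Figure D1:**
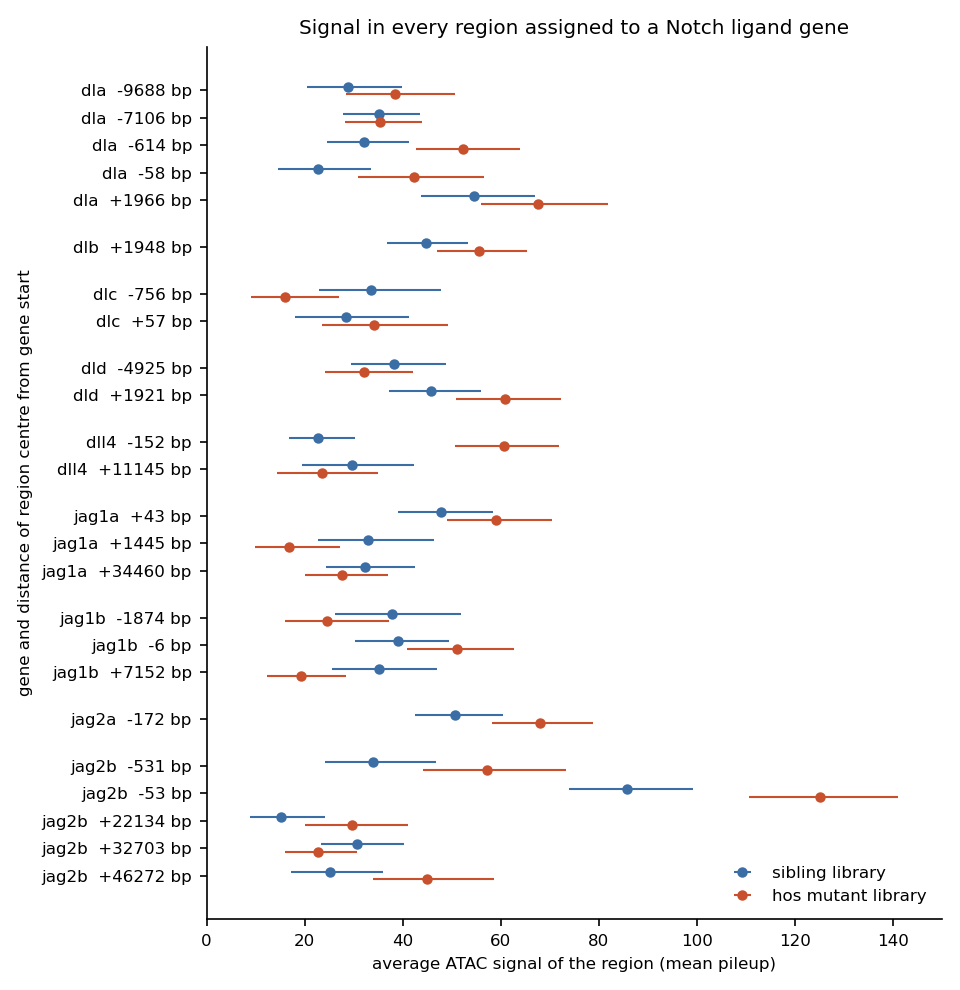
Average signal (horizontal axis, mean pileup) of the 24 regions assigned to a Notch ligand gene, labelled by gene and by the distance of the region's centre from the gene start, in the sibling (blue) and *hos* mutant (orange) library. Bars are exact 95% Poisson intervals for counting error only. The sibling and mutant signals were 22.7 and 60.6 at the *dll4* start, 85.8 and 125 at the *jag2b* start and 32 and 52.4 at *dla* -614 bp.

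The *dll4* gene, a Delta ligand of endothelial cells that restrains vessel sprouting, had the highest ratio of the ligand regions. Its promoter region (gene 563920, chromosome 20, 28244903 to 28245384 of danRer11, 152 bp upstream of the start) had a signal of 22.7 for sibling and 60.6 for mutant hearts. The fold was 2.67 (1.90 to 3.76) and an interval was called in the mutant library only. The highest pileup in the region went from 33 to 87. Among all genes with a promoter region, 0.411% had a ratio as high, and 1.26% did after the ratio was centred by lowess on mean signal. Both shares are over promoters called in either library. Of all 7247 regions called in the mutant library only, as the *dll4* start was, 17.6% were at least 2-fold higher. In the sibling library the *dll4* start was weak, above 6.13% of gene starts, and in the mutant library it stood above 54.6% of them.

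The other *dll4* region lies behind the gene and did not share this difference. It is at 11145 bp from the start, 2318 bp past the gene end (chromosome 20, 28256333 to 28256547), and had 29.6 for sibling and 23.4 for mutant hearts, a log2 ratio of -0.32. Here the interval was called in the sibling library only, so the call changed library between the 2 regions of the gene. The fold was 0.79 (0.43 to 1.42), and this interval includes 1. Around *dll4*, 8 regions assigned to other genes or to none lie within 100 kb of the start, and their median ratio was 0.21. The endothelial promoters measured, whose gene list was set beside the ligands because *dll4* belongs to that cell type, had ratios from 0.00 at *nfatc1* to 0.84 at *cdh5*, with a median of 0.67 over 5 genes and none at 2-fold. The 7 cardiomyocyte promoters had a median of 1.28, with 4 at least 2-fold higher, against 1.79% of all genes with a promoter region. Of the 4, *tnnt2a* was called in both libraries. The others, *vmhcl*, *nppa* and *nkx2.5*, were called in the mutant library only, so their direction is no separate result. The part of these cell types in the *dll4* difference was not tested.

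The *dla* gene, a Delta ligand best known for lateral inhibition among neural precursors, had 5 regions and none with a ratio below 0. At its start (gene 30131, chromosome 1, 54013278 to 54013516, 58 bp upstream) the signal was 22.8 for sibling and 42.4 for mutant hearts, a fold of 1.86 (1.12 to 3.22), with an interval in the mutant library only. The region at -614 bp (54012628 to 54013054), also within the promoter limit, had 32 and 52.4, a fold of 1.64 (1.18 to 2.29). For both *dla* promoter regions the counting interval of the fold thus lay above 1. It takes no account of the general shift toward the mutant library, a median log2 ratio of 0.25 over promoter regions.

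Away from the start the *dla* ratios were smaller. Inside the gene, 1966 bp from the start, the signal was 54.5 for sibling and 67.6 for mutant hearts, with a ratio of 0.31. The 2 far upstream *dla* regions overlap CpG islands. At -9688 bp (54003624 to 54003910) the signal was 28.8 and 38.4, a ratio of 0.41, and at -7106 bp (54006087 to 54006612) it was 35.2 and 35.3, a ratio of 0.00. The latter was the single ligand region whose sign turned under either centring, to -0.15 and -0.10, and with peak signal it was -0.09. Neural genes had a promoter median of 0.22 over 6 genes, from -0.52 at *ascl1a* to 0.78 at *elavl3*. The *ascl1a* region was called in the sibling library only, so its direction is no separate result.

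The *dlc* gene, a Delta ligand of the segmentation clock, held 2 neighbouring regions with ratios of opposite sign. Each was called only in the library where its signal was higher, so the opposite signs are no separate result. The counting interval of the fold at 57 bp included 1. Just inside the gene, 57 bp from the start (gene 30120, chromosome 15, 20468145 to 20468345), the signal was 28.3 for sibling and 34.2 for mutant hearts, a fold of 1.21 (0.71 to 2.19), and the interval was called in the mutant only. At -756 bp (chromosome 15, 20468955 to 20469161) it was 33.6 for sibling and 16 for mutant hearts, a fold of 0.48 (0.24 to 0.92), with an interval called in siblings alone. This second *dlc* region rests on an estimated 31 and 15 tags. Its ratio of -1.02 became -0.97 after lowess centring and -0.89 with peak signal, so it passed the 2-fold limit under some settings only. Both *dlc* regions are also assigned to *timm50*, whose start is about 60 kb away.

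The *dlb* and *dld* genes, like *dla* expressed in neural precursors, had no promoter region. The single *dlb* region (gene 30141, chromosome 5, 36695545 to 36696129) lies inside the gene and had 44.7 for sibling and 55.6 for mutant hearts, a ratio of 0.31. Of the 2 *dld* regions, the one inside the gene (gene 30138, chromosome 13, 6079643 to 6080121) gave 45.8 and 60.8, a ratio of 0.40 and a fold of 1.33 (1.01 to 1.74). The other, at -4925 bp from the *dld* start (6086541 to 6086916), had 38.2 and 32.2 and a ratio of -0.24. It lies 24 bp from the start of *fam120b* and is assigned to both genes.

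The Delta genes *dla*, *dlb* and *dld*, but not *dlc* and *dll4*, shared a position that the choice of members did not use. The regions inside *dla*, *dlb* and *dld* lie 1966, 1948 and 1921 bp from the respective start, each was called in both libraries, and their ratios of 0.31, 0.31 and 0.40 lay close together. Over all genes with a region, 54 of 22038 (0.245%) had a region inside the gene between 1900 and 2000 bp, against 3 of 5 Delta genes and 0 of 4 Jagged genes. The window was set after these positions were seen, so the share is a description. The 54 regions in the window had a median ratio of 0.28.

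**Figure D2:**
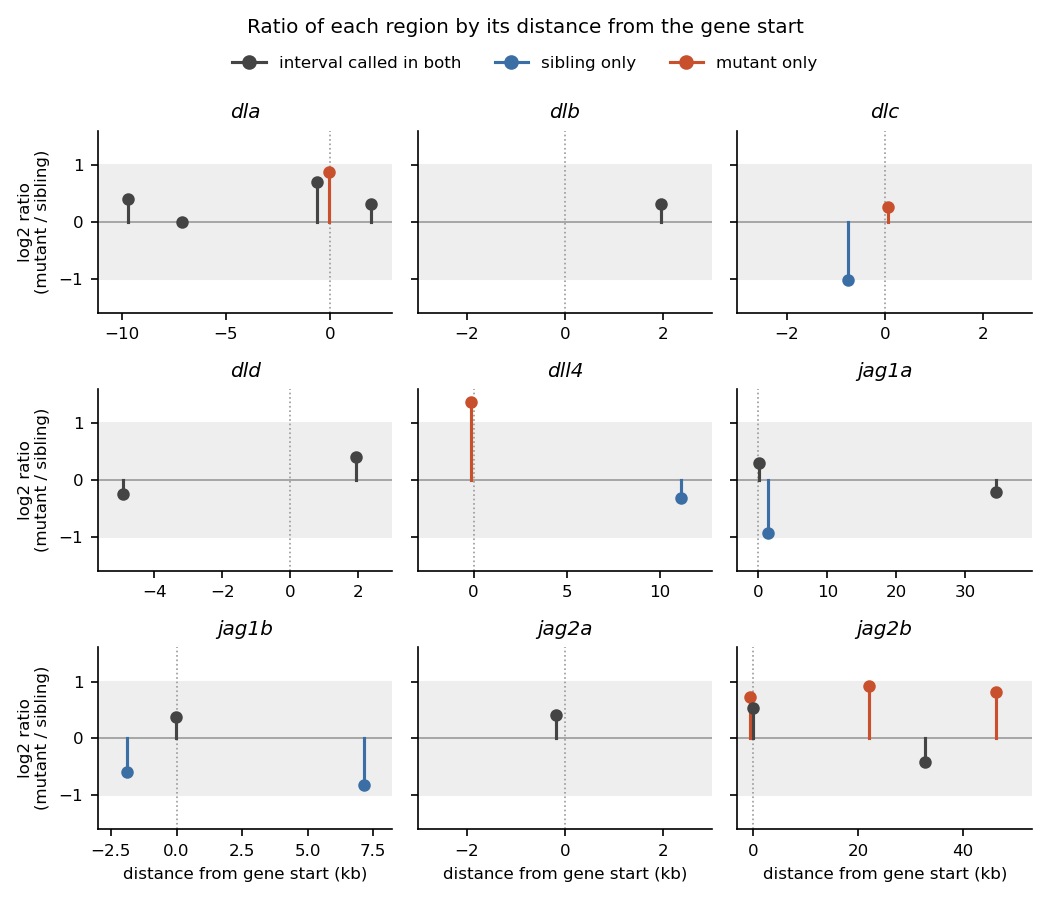
Log2 ratio of mutant over sibling signal (vertical axis) of each region against its distance from the gene start in kb (horizontal axis, scaled per gene), 1 panel per ligand gene. Colours give the library in which an interval was called and grey shading marks differences under 2-fold. The region nearest the start points up in the 7 panels with a promoter region, the *dlc* region at -756 bp points down, and so do the 4 regions of *jag1a* and *jag1b* away from the start.

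The genes *jag1a* and *jag1b* are the zebrafish counterparts of mammalian JAG1, the gene mutated in Alagille syndrome, which includes heart defects. Both had a promoter region called in both libraries. At the *jag1a* start (gene 140421, chromosome 1, 51157430 to 51157897) the signal was 47.9 for sibling and 59 for mutant hearts, a ratio of 0.30. At the *jag1b* start (gene 140423, chromosome 13, 35338981 to 35339372) it was 39.1 and 51.1, a ratio of 0.38. Both ratios were near the promoter median, and both intervals of the fold include 1.

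All 4 regions of *jag1a* and *jag1b* away from the start had less signal in the mutant library. Inside *jag1a*, the region at 1445 bp (51156149 to 51156373) had 33 for sibling and 16.9 for mutant hearts, 1.96-fold (1.05 to 3.72) lower. The one at 34460 bp (51123064 to 51123429) had 32.3 and 27.7, a ratio of -0.22. Its fold was 0.86 (0.56 to 1.29), an interval that includes 1. At *jag1b*, the region at -1874 bp (35337201 to 35337416) had 37.7 and 24.6, a ratio of -0.60. The *jag1b* region at 7152 bp (35346194 to 35346475), inside the gene, had 35.1 and 19.3 and was 1.82-fold (1.09 to 3.15) lower. The median of the 4 was -0.71, and 3 of them had an interval in the sibling library only. These 3 entered the set through the library in which they are higher. Over all 26779 regions more than 1000 bp from a start, 12330 were below 0 and 6956 were called in the sibling only. The sibling signals of the 4, all of them called in the sibling library, lay between 32.3 and 37.7, against a median of 31 over those regions. None of the 4 had a larger signal at or above 39.3, the median over all regions. All 4 were also below 0 with lowess centring and with peak signal, which comes from the same reads. Centring on the median of all regions lowers every ratio, so it could not change their direction.

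Of the few regions near *jag1b* that belong to other genes or to none, most were lower in the mutant library. Within 100 kb of the *jag1b* start, 4 regions assigned to other genes or to none had a median ratio of -1.08, with 1 of them above 0 at 0.28. Their median signal was 24.8 for sibling and 12.7 for mutant hearts. No region in the set had a larger signal below 21.3, so a region with a mutant signal near 12.7 is there for its sibling signal. The direction of such a region is no separate result. Near *jag1a* the 8 such regions had a median of -0.10. Of the 6 marker lists, that of epicardial genes alone had a median below 0, at -0.62 over 3 promoters. The ratios were -0.87 at *wt1b*, -0.62 at *tbx18* and 0.48 at *wt1a*. Only *tbx18* was called in both libraries. The *wt1b* region was called in the sibling only and that of *wt1a* in the mutant only, so their directions are no separate result. The part of the epicardial genes in the *jag1* values was not tested.

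The *jag2b* gene, described in zebrafish in cardiomyocytes that form trabeculae, had the strongest promoter of the 9 ligand genes. At its start (gene 140422, chromosome 20, 21390882 to 21391362) the signal was 85.8 for sibling and 125 for mutant hearts, a fold of 1.46 (1.20 to 1.77). This region overlaps a CpG island and stood above 80.2% of gene starts for sibling and 86.1% for mutant hearts. A second promoter region at -531 bp (21390519 to 21390769) had 34 and 57.3, a fold of 1.68 (1.11 to 2.59), with an interval in the mutant only. For the 2 *jag2b* promoter regions the counting interval of the fold lay above 1, without account of the general median log2 ratio of 0.25 over promoter regions. The ratio at the start, 0.54, lay below the 1.28 median of the 7 cardiomyocyte promoters, whose part in it was not tested. Some of these promoters were called in the mutant library only, which bears on that median.

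Deep inside *jag2b* the ratios of the regions differed in sign. At 22134 bp (21413183 to 21413436) the signal was 15.3 for sibling and 29.6 for mutant hearts, a fold of 1.94 (1.05 to 3.72), and at 46272 bp (21437310 to 21437584) it was 25.1 and 45, a fold of 1.79 (1.12 to 2.85). Both had an interval in the mutant library only, so their direction is no separate result. Between them, at 32703 bp (21423679 to 21424078), the signal was 30.7 and 22.7, with an interval called in both libraries. The fold there was 0.74 (0.47 to 1.11), and its counting interval includes 1. The paralog of *jag2b*, *jag2a*, had a single region, 172 bp upstream of the start (gene 566455, chromosome 13, 33487405 to 33487982). The signals there, 50.7 and 67.9, differed by a fold of 1.34 (1.06 to 1.69).

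The order of the starts by signal set Jagged above Delta genes in the sibling library. The Delta starts were called in the mutant library only and the Jagged starts in both. The low sibling place of the Delta starts is thus tied to how they entered the set and is no separate result. It ran *jag2b* (85.8), *jag2a* (50.7), *jag1a* (47.9), *jag1b* (39.1), *dlc* (28.3), *dla* (22.8) and *dll4* (22.7). Only the first neighbours in this order, *jag2b* and *jag2a*, had counting intervals that did not overlap (73.9 to 99.2 and 42.5 to 60.4). In the mutant library *jag2b* and *jag2a* kept the first places with 125 and 67.9, and *dll4* followed with 60.6 (50.6 to 71.9), next to *jag1a* with 59, *jag1b* with 51.1, *dla* with 42.4 and *dlc* with 34.2. Again only *jag2b* and *jag2a* did not overlap as neighbours. Signals are means over the region, and the regions differ in length from 200 to 577 bp.

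The split of the ligand regions by signal strength depended on which library set the limit. Of the 12 whose larger signal was at or above 39.3, the median over all regions, 12 had a ratio above 0, against 75.4% of all such regions. Of the 12 weaker ones, 4 were above and 8 below 0, against 48.5% above 0 over all weaker regions. The larger signal takes part in the ratio, and regions such as the *dll4* start passed the limit through the mutant library alone. When the limit was set on the sibling signal, 8 of 11 stronger and 8 of 13 weaker ligand regions were above 0, against 63.6% and 60.3% of all regions. With the limit on the mutant signal it was 13 of 13 and 3 of 11, against 82.9% and 41.0%. On the mean signal it was 12 of 13 and 4 of 11, against 74.9% and 49.0%. Each of these signals takes part in the ratio. The plot of ratio by signal shows a rise over all regions as well: the median ratio was -0.09 in the lowest of 10 equal classes by larger signal and 0.31 in the highest.

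**Figure D3:**
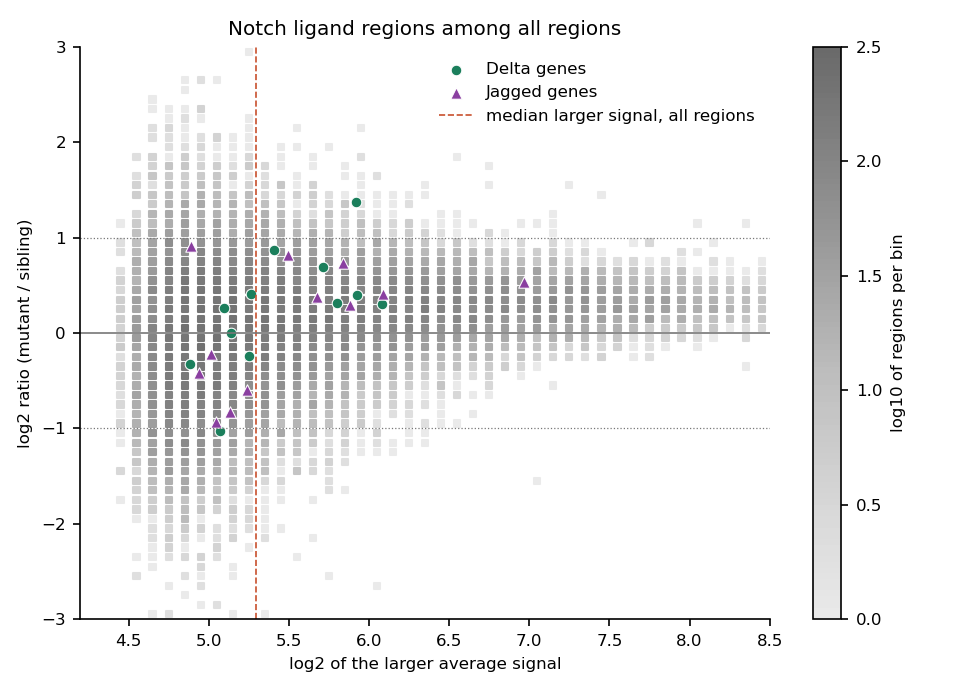
Log2 ratio of mutant over sibling signal (vertical axis) against log2 of the larger average signal (horizontal axis). Grey squares count all regions per bin of 0.1 by 0.1, green circles are Delta and purple triangles Jagged regions, the dashed line marks the median of 39.3 and dotted lines mark 2-fold differences; bins beyond the axes are not shown. To the right of the dashed line 12 ligand regions lie above 0, some placed there by their mutant signal, and with the limit on the sibling signal 8 of 11 did.

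Intervals were called in both libraries in 13 of the 24 regions (54.2%), in the sibling only in 5 (20.8%) and in the mutant only in 6 (25%), against 63.7%, 18.9% and 17.5% of all regions. A call comes from the same reads as the signal and is no separate readout. At promoters the share called in both was lower than in general, with 5 of 10 ligand promoter regions against 83.8% of all promoter regions. The 5 others were the starts of *dll4*, *dla* and *dlc*, and the second regions of *jag2b* and *dlc*. The median sibling signal of the ligand promoter regions was 33.8, against 46.5 over all promoter regions, and the median mutant signal was 54.8 against 54.9. Of these 10 regions, 4 (40%) were called in the mutant library only, against 10.3% of all promoter regions. Such regions enter the set without a sibling call, so the lower sibling median is no separate result. CpG islands lay in 1 of the 10 promoter regions and in 2 of the 14 others, against 22.9% and 3.78% of all regions of these kinds.

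Among the other genes of the pathway no promoter differed 2-fold. Of 44 further names, 40 genes were in the files and 34 had a promoter region, with a median ratio of 0.25, equal to that of all genes, and 28 above 0. Over all genes with a promoter region, 1.79% were at least 2-fold higher and 0.788% lower. The non-canonical ligand gene *dlk1* was the highest of them at 0.94, with 18.5 for sibling and 36.4 for mutant hearts, and *dner*, another non-canonical ligand gene, had 0.41. The *dlk1* region was called in the mutant library only, so its direction is no separate result.

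The 2 non-canonical ligand genes had a median of 0.67, above the 0.41 of the 7 ligand promoters, and a difference between lists was not tested. Receptor promoters lay between 0.18 at *notch2* and 0.81 at *notch1a*, with a median of 0.46 over 4 genes. The Fringe glycosyltransferase genes, which tune how receptors respond to Delta and Jagged, had 0.62 at *lfng* and 0.15 at *rfng*. Genes that process ligands and receptors had the lowest median, 0.07 over 10 genes, with 5 below 0. The lowest of them was *neurl1ab*, a ubiquitin ligase gene, at -0.55, with an interval called in the sibling library only. Of the nuclear factors *maml3* had 0.21 and *maml1* 0.58, and of the inhibitors *numb* had -0.02 and *itchb* 0.42. Targets had a median of 0.39 over 8 genes, from *her9* at 0.06 to *her4.2* at 0.78, the latter called in the mutant library only. All 8 were above 0, next to 77.3% of all genes with a promoter region, but *hey1*, *her6* and *her9*, the first 2 named after their values were seen, were below 0 under both centrings, at -0.16, -0.16 and -0.22 with lowess.

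**Figure D4:**
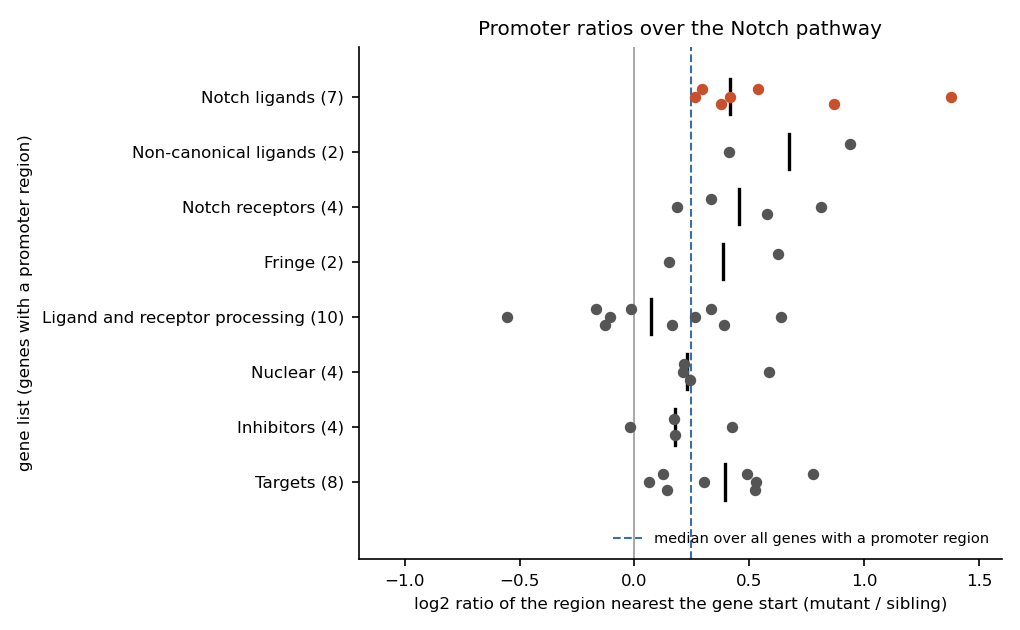
Log2 ratio of mutant over sibling signal at the promoter region nearest the start (horizontal axis), 1 point per gene, for the Notch ligands (orange) and other Notch pathway genes (grey), with the number of genes in brackets. Black bars are list medians and the dashed line is the median of 0.25 over all genes. The ligands run from 0.26 to 1.38, and their highest point is *dll4*.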

How the data were processed

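Per the labels, a commercial service made and sequenced the ATAC-seq libraries, and the submitters' processing notes name MACS2 2.1.0 and danRer11. For alignment, duplicates, transposase shift and scaling the method is not given in the sources used here. Intervals of both genotypes were merged by the authors, who deposited an average and a peak signal per region; a gene table gives the mean of the peak signals. They also deposited a log2 ratio and a shrunken fold change between the libraries, which were not used. Coordinates and gene IDs are as deposited (a region's length is its end minus its start, so starts may count from 0), and regions up to 10475 bp upstream of a start were assigned to it.

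Tags were signal times length over 224, the divisor of the deposited tag column, rounded. Fold intervals are exact binomial (Clopper-Pearson) and signal intervals exact Poisson intervals at 95%. Duplicate reads are not independent, so both cover counting error only. Promoter regions lay within 1000 bp of a start; the nearest one stood for the gene. Exons and introns were not analysed here. Each region of every ligand gene was named, and of other lists genes past 2-fold at the promoter or else the ends (1 gene is not reported here). Marker genes were named where they bear on a ligand. The members and lists were chosen with earlier results of these data known. Of the pathway names *maml2*, *heyl* and *her12* were not matched, and *her4.1* was the same gene as *her4.2*. Alternatives were pseudocounts of 0.1 and 5, peak signal, median and lowess (span 0.2) centring, a signal floor of 39.3, the calls, the fold limit and the promoter distance. Steps were tested on simulated data. No sequence was analysed here. Work was done in Python 3.11.15 with scipy 1.17.1 (intervals), statsmodels 0.14.6 (lowess), pandas 2.3.3, numpy 2.4.6 and matplotlib 3.10.9.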

Additional observations from a re-analysis of the deposited data

How the results depend on the processing

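No paired analysis was possible because each genotype had 1 library, and no replicate could be left out. The median ratio of the 24 ligand regions, 0.31, lay between 0.15 and 0.48 under the alternatives. The count of regions at least 2-fold higher, 1, became 2 with lowess centring, when the *jag2b* region at 22134 bp joined *dll4*, and was 0 among regions called in both libraries and 6 at a limit of 1.5-fold. The count at least 2-fold lower, 1, was 0 with a pseudocount of 5, with peak signal, with lowess centring, among regions at or above the signal floor, among those naming no other gene and among those called in both libraries. It was 2 with the median of all regions set to 0 and 4 at 1.5-fold. The values of all 24 regions stayed within their counting intervals under the 5 settings of scaling, pseudocount and signal, and the 7 promoter values stayed above 0. By choices made after the data were seen, the median over the 10 promoter regions, 0.48, was 0.24 with lowess centring. By such choices too, the ligand regions past the signal floor that were above 0 numbered 12 of 12 with the floor on the larger signal. They numbered 8 of 11 on the sibling signal, 13 of 13 on the mutant signal and 12 of 13 on the mean signal. Tags per ligand region ran from 15 to 268, so most folds under 1.5 were within counting error.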

Other observations

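In the deposited gene table *dll4* had 33.5 for sibling and 58.5 for mutant hearts as the authors' mean of peak signals, *jag2b* had 54 and 78, and *dla* had 46.8 and 61.8. For *dlc* the values were 35.5 and 27.5, for *jag1a* 53 and 47.7, and for *jag1b* 44.3 and 42.3, so these 3 genes had a lower mean although the region nearest their start was higher in the mutant library. Summed over its regions, a gene's estimated tags gave a fold of 1.97 (1.49 to 2.63) for *dll4* and 1.42 (1.23 to 1.64) for *jag2b*. It was 1.32 (1.14 to 1.55) for *dla* and 1.34 (1.06 to 1.69) for *jag2a*. The counting interval included 1 for *dlb*, *dlc*, *dld*, *jag1a* and *jag1b*. These intervals take no account of the general shift, with 4091429 tags for sibling and 4748194 for mutant hearts over all regions. Of the 7 ligand genes with more than 1 region, 6 held regions of both directions, with *dla* as the exception. The share over all genes was not computed, and 62.0% of all regions were above 0. The *dla* exception rests on the region at -7106 bp, at 0.00, which was -0.15 and -0.10 under the centrings and -0.09 with peak signal. In *dld*, *dll4* and *jag2b* the counting interval of the fold at the lower region included 1. All 6 ligand regions called in the mutant library only were above 0, and all 5 called in the sibling only were below 0. For these regions the direction goes with the call and is no separate result.

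Around the other ligand genes, regions within 100 kb of the start that named no ligand gene had median ratios of 0.29 at *dla* (12 regions), 0.23 at *dlb* (16), 0.08 at *dlc* (10), -0.11 at *dld* (5) and 0.11 at *jag2a* (4). Only 1 such region lay near *jag2b*, at -0.26, which was below the *jag2b* promoter at 0.54. At least 2-fold differences in either direction were seen in 3 of the 10 regions near *dlc*, 2 of 16 near *dlb*, 2 of 4 near *jag1b*, 1 of 8 near *dll4*, 1 of 4 near *jag2a* and none near the others, next to 3.32% of all regions higher and 4.83% lower.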
